A study of Trachinotus blochii with 22 samples.

Results

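miR-128, miR-138, miR-153 and miR-124 are 4 families of microRNAs, short RNAs that pair with messenger RNAs and lower their use, which are best known from the vertebrate brain. They were followed here by small RNA sequencing of liver from Trachinotus blochii, the golden pompano, a farmed sea fish. Every row of the deposited table named miR-128, miR-138, miR-153 or miR-124 was taken, with any letter, copy or arm suffix. This gave 43 of 2108 rows, which hold 33 distinct entries once rows identical in all libraries are counted once and arms are kept apart. Of these, 32 were above 0 in some library, of 1401 such entries in the table. They are 13 entries of miR-124, 4 of miR-128, 7 of miR-138 and 9 of miR-153. A row is named after a miRNA of another species (mmu for mouse, dre for zebrafish, ola for medaka, gga for chicken), and near-identical rows share reads.

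The 22 libraries fall into 8 groups, and the labels give no strain, age or fish number. Hypoxia was sampled at 0 h and 12 h (3 libraries each), rapid return of oxygen at 3 h (3) and 12 h (2), gradual return of oxygen at 3 h and 12 h (3 each), and normoxia, the normal oxygen level, at 0 h (2) and 12 h (3). The starting point of the hours is not stated in the labels, nor whether different libraries hold different fish. The p-values therefore cover the spread among the sequenced samples alone, which may be technical. The condition letters in the table's column names are not explained, so columns were joined to groups by the hour in their name and the number of libraries per group, a limit on every comparison. The normoxia 0 h columns carry no hour and were placed by their number alone, and library numbers are those of the table. Levels are in CPM, which are reads scaled so that every library has the same sum, with no scaling by length. Libraries held 17.5 to 33.8 M reads, so 1 read was worth 0.0296 to 0.0572 CPM, and 3 reads, the floor used here, 0.0888 to 0.172 CPM. The hepatocyte marker miR-122 was at 37563 to 109912 CPM in the 22 libraries (oha-miR-122-5p). Library 2 of normoxia 0 h stood apart, at a root mean square distance of 1.34 log2 units over entries from the median library. The other 21 lay at 0.345 to 0.868.

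In the vertebrate brain, miR-124 is the leading miRNA of neurons, where it represses genes of other cell types, and its 3p arm is the active strand. miR-128 is carried in introns of brain-expressed genes of mammals and lowers the excitability of mouse neurons, and its 3p arm is active. miR-138 acts at synapses, where in rat neurons it limits the size of dendritic spines, and its 5p arm is active. miR-153 lies in introns of genes for proteins of secretory granules in mammals, and in human cells it represses alpha-synuclein together with miR-7, another miRNA of neurons and endocrine cells.

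The 4 families differed widely in level. miR-128 was the most abundant. Its 3p arm (mmu-miR-128-3p) averaged 591 CPM over the 22 libraries and ranged from 233.7 to 976.5 CPM, a 4.18-fold span. The medaka entry ola-miR-128 was at 84.4% to 91.2% of it in every library and is no separate measurement. miR-153 came next through a single entry, the 3p arm of zebrafish miR-153b (dre-miR-153b-3p), with a mean of 136 CPM and a span of 411-fold, between 1.66 CPM (56 reads) and 680 CPM (13912 reads). Its 5p arm (dre-miR-153b-5p) averaged 0.298 CPM, and its summed level was 0.219% of that of the 3p arm. miR-138 was low and even, at a mean of 5.22 CPM and between 2.55 and 8.54 CPM for its 5p arm (mmu-miR-138-5p). miR-124 was close to the floor. By the mouse names, its 5p arm (mmu-miR-124-5p) averaged 0.504 CPM, between 0.0318 and 1.87 CPM. Its 3p arm by name (mmu-miR-124-3p) averaged 0.386 CPM, between 0 and 5.55 CPM.

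Entries were tested where 2 or more libraries held 1 CPM or more, which 10 of the 33 met. They are 5 entries of miR-138, 2 of miR-128, 2 of miR-153 and 1 of miR-124. The 23 entries that were not tested reached at most 5.55 CPM, and 1 of them (dre-miR-124-4-5p) was listed at 0 in every library. The remaining tested entries of miR-138 were fru-miR-138 (3.02 CPM on average), cgr-miR-138 (3.02 CPM), gga-miR-138-5p (1.28 CPM) and pma-miR-138b (1.11 CPM), and fru-miR-138 was at 48.3% to 65.9% of mmu-miR-138-5p. Within miR-124 the arm names were at odds. gga-miR-124c-5p followed mmu-miR-124-3p (Pearson r of log2 values 0.999 over 22 libraries, with shared reads) and gga-miR-124c-3p followed mmu-miR-124-5p (r = 0.85). Between the 2 mouse-named arms r was −0.01. They rest on 0 to 97 reads (mmu-miR-124-3p) and 1 to 58 reads (mmu-miR-124-5p) a library, so a weak r there is no result.

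The families also did not move as one group across libraries. Over the 22 libraries, which share their scaling, Pearson's r of log2 values was 0.23 between miR-128-3p and miR-138-5p, −0.16 between miR-128-3p and miR-153b-3p and −0.13 between miR-138-5p and miR-153b-3p. The lowest was −0.51, between miR-153b-3p and miR-124-5p, but miR-124-5p rests on 1 to 58 reads a library. Libraries 2 and 3 of gradual reoxygenation 3 h were both the highest in miR-124-5p and the lowest in miR-153b-3p. Because whole liver was sequenced, fewer cells of a type and less RNA per cell cannot be told apart in any level given here.

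**Figure D1:**
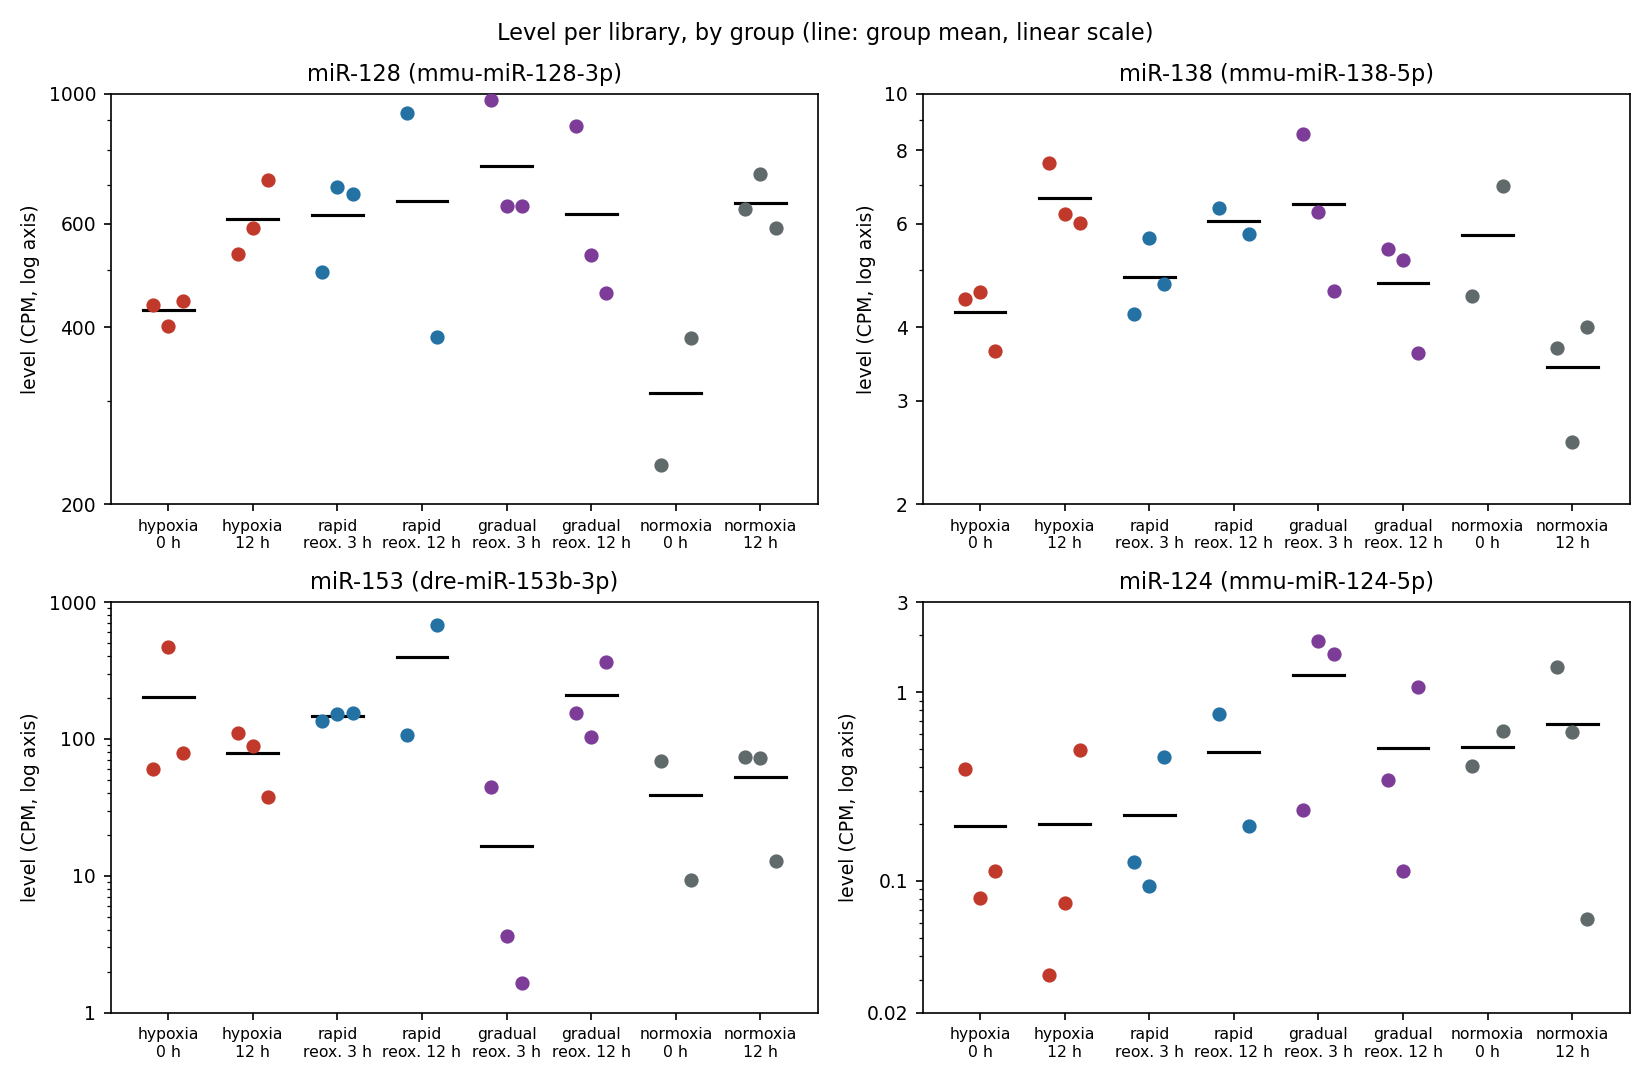
Level of the most abundant tested entry of each family in CPM (log axis) in each of the 22 libraries, by group, with the group mean as a line. miR-153b-3p covers 1.66 to 680 CPM and is lowest in gradual reoxygenation 3 h, while miR-138-5p stays between 2.55 and 8.54 CPM.

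miR-153b-3p was the member with the widest differences between libraries. In gradual reoxygenation at 12 h it was at 156, 103 and 367 CPM in libraries 1, 2 and 3, and in gradual reoxygenation at 3 h at 44.3, 3.65 and 1.66 CPM. Each 12 h library lay above each 3 h library. The mean was 209 ± 140 CPM at 12 h and 16.5 ± 24.1 CPM at 3 h (SD, n = 3 each). miR-153b-3p rose at 12 h, with a log2(CPM + 1) change of 4.46 ± 1.06 (limma with Benjamini-Hochberg adjustment over 602 entries, adjusted p = 0.0469). It was the single member called of the 10 tested, where limma called 1.83% of all entries, and the single entry called higher (0.166% of entries). The count at an unadjusted p under 0.05 was 4 of 10 members, against 16.8% of entries. Beside both arms of miR-153b these were gga-miR-138-5p (−0.57 ± 0.24, adjusted p = 0.267 by limma) and pma-miR-138b (−0.57 ± 0.25, adjusted p = 0.275 by limma), which share reads.

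The 10 entries called lower in that comparison (1.66%) included miR-144 and miR-451, which developing red blood cells make from a common transcript. The summed level of both erythroid markers, miR-144 and miR-451, was lower, at 863 to 4501 CPM at 12 h and 9458 to 12791 CPM at 3 h. By the most abundant entry of each, limma called 1 of the 2 lower. The sum of all 4 leukocyte markers was also lower, at 49.4 to 73.8 CPM at 12 h and 74.9 to 96.1 CPM at 3 h. Of them 3 were lower and 1 higher, and limma called 1 lower, miR-142-5p (adjusted p = 0.0482). All 3 pancreatic acinar markers were higher. Their sum was at 1345 to 4338 CPM at 12 h and 38.4 to 1388 CPM at 3 h, and these ranges overlapped. Limma called 0 of the 3, with 2 (miR-216b and miR-217) at an unadjusted p under 0.05 and a median log2 change of 2.55. No marker of these lists was at 0. Their part in the result was not tested. The 3 neural markers that are not members (miR-9, miR-137 and miR-219) summed to 7.30 to 333 CPM at 12 h and 7.16 to 12.98 CPM at 3 h and overlapped, with miR-219 at or near 0 in most libraries. The call depended on single libraries: adjusted p by limma was 0.172 and 0.122 without library 2 and library 3 of gradual reoxygenation 3 h, and 0.113, 0.0515 and 0.0761 without libraries 1, 2 and 3 of gradual reoxygenation 12 h. On reads recovered from the CPM, edgeR's quasi-likelihood test gave an adjusted p of 0.0738 and DESeq2 one of 0.00525.

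Whether 12 h differed from 3 h more under gradual than under rapid return of oxygen was tested in the same fit. Under rapid reoxygenation miR-153b-3p was at 107 and 680 CPM at 12 h, and at 136, 153 and 156 CPM at 3 h. Library 2 was above the 3 h libraries and library 1 below them, so the groups overlapped. The difference between the 2 changes was 3.60 ± 1.59 on the log2 scale and did not pass (limma with Benjamini-Hochberg adjustment, adjusted p = 0.460), so the rise was not shown to differ between gradual and rapid reoxygenation. None of the 10 members passed that test by limma (2 at an unadjusted p under 0.05, 0 by edgeR, 1 by DESeq2), where 0.166% of entries did and 10.5% had an unadjusted p under 0.05. Shares of entries, here and below, are those of limma, and no such share is given for edgeR or DESeq2.

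At 3 h miR-153b-3p stood lower under gradual than under rapid reoxygenation, and lower than in hypoxia at 0 h, in every library. Hypoxia 0 h held 59.9, 469 and 78.5 CPM. The change was −4.17 ± 1.06 against rapid reoxygenation 3 h and −4.00 ± 1.06 against hypoxia 0 h, on the log2(CPM + 1) scale. Neither passed (limma with Benjamini-Hochberg adjustment, adjusted p = 0.173 for each), and the comparisons share the gradual reoxygenation 3 h libraries. The 3 pancreatic acinar markers summed to 38.4 to 1388 CPM in gradual reoxygenation 3 h, against 2549.8 to 3513 CPM in rapid reoxygenation 3 h and 2300.1 to 3499 CPM in hypoxia 0 h. Both erythroid markers summed to 9458 to 12791 CPM in gradual reoxygenation 3 h, against 2920.0 to 4729 CPM in rapid reoxygenation 3 h and 2674 to 4849 CPM in hypoxia 0 h. Neither sum overlapped between the groups, limma called none of these markers there (5 of 5 at an unadjusted p under 0.05 against rapid reoxygenation and 4 of 5 against hypoxia), and their part in the result was not tested. The 2 smooth muscle markers summed to 13460.5 to 17245 CPM in gradual reoxygenation 3 h. Their sum was 17839 to 22400 CPM in rapid reoxygenation 3 h and 23161.5 to 34957 CPM in hypoxia 0 h. Limma called neither in these comparisons, with 0 at an unadjusted p under 0.05 against rapid reoxygenation and 2 against hypoxia. Their part was not tested either. Limma called 0 of the 10 members in both, and 0% of all entries in both, with 2 members (9.47% of entries) at an unadjusted p under 0.05 against rapid reoxygenation, miR-153b-3p and miR-124-5p, and 5 members (14.8% of entries) against hypoxia, those 2, both miR-128 entries and gga-miR-138-5p. edgeR called 0 members in both and DESeq2 1 in both, miR-153b-3p (adjusted p = 0.0491 against rapid reoxygenation and 0.0109 against hypoxia). Without library 1 of gradual reoxygenation 3 h, its highest, the limma adjusted p against rapid reoxygenation was 0.0241. Without library 2 of normoxia 0 h, which belongs to neither group but to the same fit, it was 0.0411 against hypoxia.

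Against normoxia, hypoxia did not separate in miR-153b-3p. Hypoxia 12 h held 111, 89.4 and 37.6 CPM and normoxia 12 h held 73.5, 72.9 and 12.9 CPM, and these groups overlapped. Both rapid reoxygenation 12 h libraries lay above the normoxia 12 h libraries, with a change of 2.67 ± 1.18 that did not pass (limma with Benjamini-Hochberg adjustment, adjusted p = 0.977). Every gradual reoxygenation 12 h library lay above the normoxia 12 h libraries too. The change there was 2.10 ± 1.06 and did not pass (limma adjusted p = 0.528). Normoxia 0 h held 69.1 and 9.29 CPM. In order of group means, rapid reoxygenation 12 h (393 ± 406 CPM, n = 2) was followed by gradual reoxygenation 12 h (209 ± 140), hypoxia 0 h (203 ± 231), rapid reoxygenation 3 h (148 ± 10.7), hypoxia 12 h (79.4 ± 37.8), normoxia 12 h (53.1 ± 34.8), normoxia 0 h (39.2 ± 42.3, n = 2) and gradual reoxygenation 3 h (16.5 ± 24.1), with the SD and n = 3 where not given. Of neighbours in this order, rapid reoxygenation 3 h and hypoxia 12 h were farther apart than the SD of either. The other neighbours were not.

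The authors' deposited table gives group means that include a further library in 2 groups, which is not analysed here. For miR-153b-3p its mean is 275 CPM for rapid reoxygenation 12 h, where the libraries used average 393 CPM, and 101 CPM for normoxia 0 h, where they average 39.2 CPM. That rapid reoxygenation 12 h lay above normoxia 12 h in each library therefore holds for the libraries used alone. So does the place of normoxia 0 h in the order of group means. For miR-128-3p the deposited mean is 537 CPM for rapid reoxygenation 12 h, where the libraries used average 656 CPM.

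miR-153b-3p varied more among libraries of a group than nearly all entries. Its SD within groups was 1.44 on the log2(CPM + 1) scale, against a median of 0.40 over all entries. A larger SD was seen in 10 of the 602 entries tested and in 8 of the 320 with a mean of at least 10 CPM. The SD was 0.25 for miR-138-5p, 0.38 for miR-128-3p and 0.42 for miR-124-5p. The added 1 CPM narrows the SD of low entries, so that of miR-124-5p cannot be set against those of abundant entries. Within hypoxia 12 h alone miR-124-5p ran from 0.0318 to 0.491 CPM. The lowest library of miR-153b-3p held 56 reads.

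**Figure D2:**
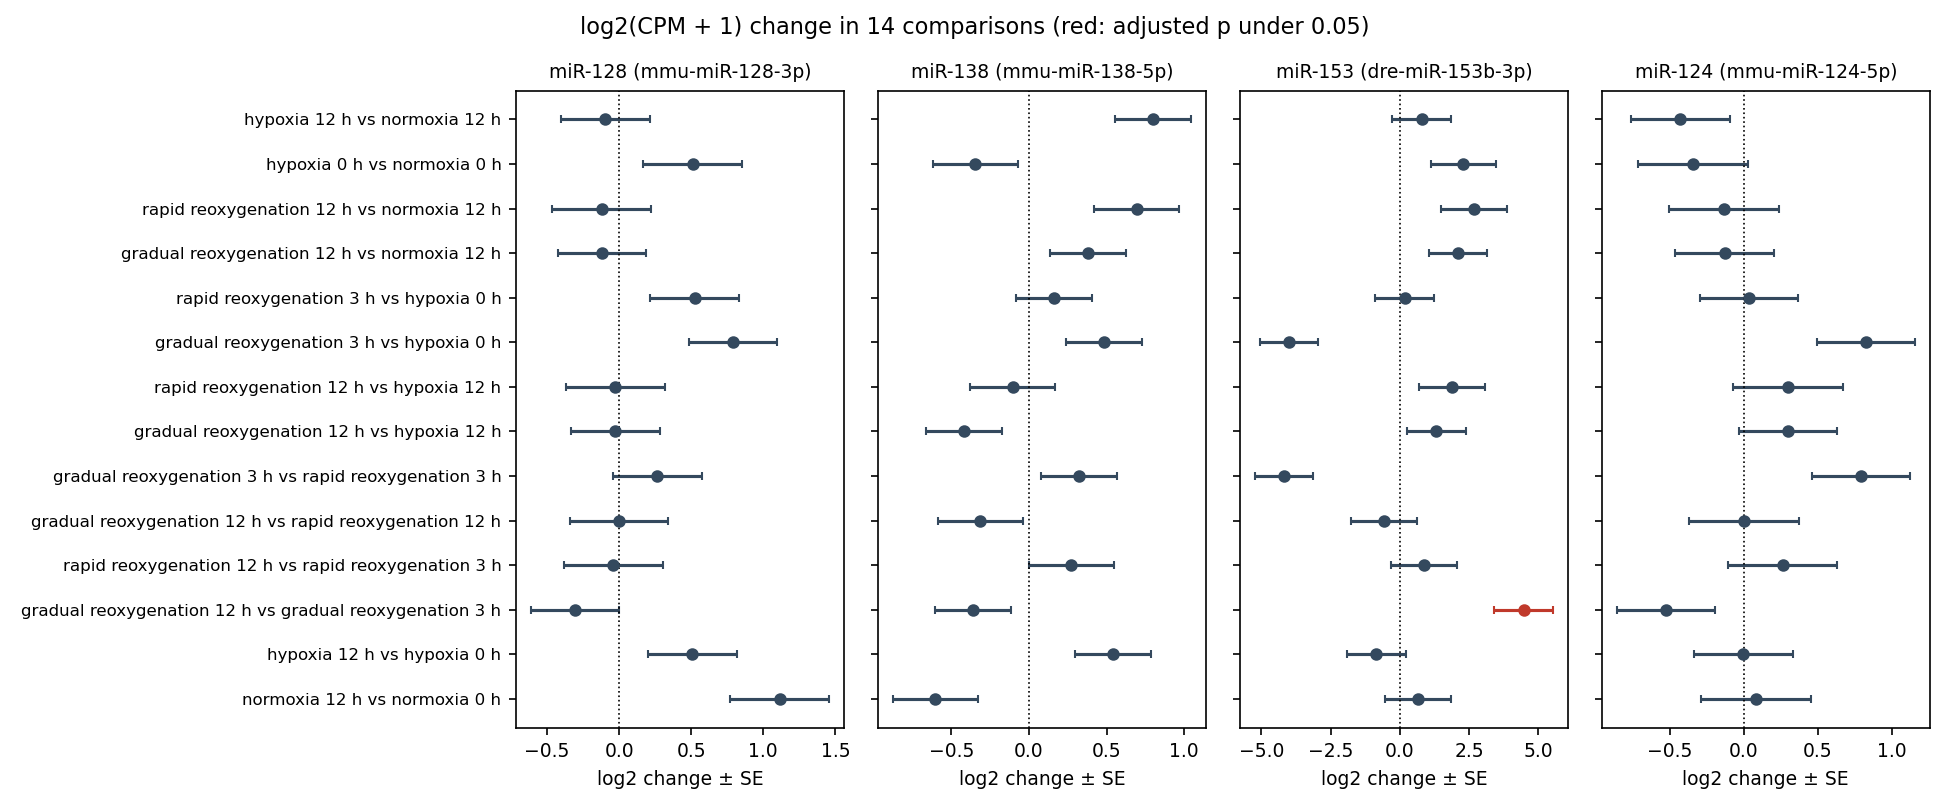
Change on the log2(CPM + 1) scale with its standard error for the same 4 entries in the 14 comparisons of groups, each written as the first group against the second. The red point, gradual reoxygenation 12 h against gradual reoxygenation 3 h for miR-153b-3p (4.46 ± 1.06), is the single one with an adjusted p under 0.05 by limma.

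The 5p arm of miR-153b, the strand that is mostly discarded, was measured with few reads. At 12 h of gradual reoxygenation it was at 1.77, 0.0375 and 1.06 CPM (31, 1 and 30 reads), and at 3 h at 0.0787, 0 and 0 CPM (2, 0 and 0 reads). Libraries 1 and 3 at 12 h were high and library 2 was below library 1 at 3 h. Besides those high libraries, only library 2 of hypoxia 0 h reached 1 CPM (1.09 CPM). The 5p arm thus entered the tests through the group where it was high. Its p-values for gradual reoxygenation 12 h, and its place in counts of members there, are therefore no support. The change of 0.82 ± 0.28 on the log2(CPM + 1) scale did not pass (limma with Benjamini-Hochberg adjustment, adjusted p = 0.129). Gradual reoxygenation 12 h was also at an unadjusted p under 0.05 against normoxia 12 h (0.72 ± 0.28, adjusted p = 0.296 by limma) and against hypoxia 12 h (0.72 ± 0.28, adjusted p = 0.454 by limma), and for the difference between gradual and rapid reoxygenation (0.90 ± 0.42, adjusted p = 0.460 by limma). Normoxia 12 h held 0.205, 0.0412 and 0.0626 CPM and hypoxia 12 h 0.0953, 0.115 and 0.0983 CPM, all at or near the floor. Single libraries decided these values. Without library 2 of gradual reoxygenation 12 h, the change was 1.22 against gradual reoxygenation 3 h (limma adjusted p = 0.00989) and 1.12 against normoxia 12 h (limma adjusted p = 0.0220). Without library 1, it was 0.51 against gradual reoxygenation 3 h (limma adjusted p = 0.479) and 0.41 against normoxia 12 h (limma adjusted p = 0.777).

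Limma called 0 members of gradual reoxygenation 12 h against normoxia 12 h, where 1.66% of entries were called (1 member and 10.6% of entries at an unadjusted p under 0.05, 0 members by edgeR and by DESeq2). Against hypoxia 12 h it called 0 members and 0% of entries, with 5 members and 9.8% of entries at an unadjusted p under 0.05 and 0 members called by edgeR and by DESeq2. These were miR-153b-5p and, lower in gradual reoxygenation, cgr-miR-138, fru-miR-138, gga-miR-138-5p and pma-miR-138b, with changes of −0.51 to −0.69 and adjusted p of 0.452 to 0.497 by limma. The miR-138 entries share reads. The most abundant of that family, mmu-miR-138-5p, was not among them (−0.42 ± 0.25, adjusted p = 0.609 by limma).

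miR-138-5p, which limits dendritic spines in rat neurons, was higher in hypoxia than in normoxia at 12 h without passing. It was at 7.62, 6.25 and 6.03 CPM in hypoxia 12 h and at 3.69, 2.55 and 4.01 CPM in normoxia 12 h. Each hypoxia library lay above each normoxia library. The means were 6.63 ± 0.86 CPM in hypoxia and 3.42 ± 0.77 CPM in normoxia (SD, n = 3 each). The log2(CPM + 1) change was 0.80 ± 0.25 (limma with Benjamini-Hochberg adjustment, adjusted p = 0.259). Limma called 0 of the 10 members, where 0.664% of entries were called, with 5 members at an unadjusted p under 0.05, against 3.82% of entries. The groups did not overlap for 5 of the 10 members, against 12.8% of entries. These 5 are the tested miR-138 entries, which share reads. edgeR called 0 members and DESeq2 called 3 miR-138 entries (adjusted p = 0.0110 for mmu-miR-138-5p). The share of all entries that DESeq2 called is not given, so its count cannot be set against the limma share. The depth behind the values was 163 to 240 reads in hypoxia 12 h and 62 to 128 reads in normoxia 12 h. Both erythroid markers went the other way, at a summed 2534 to 4031 CPM in hypoxia and 7175 to 13971 CPM in normoxia. Limma called 1 of them lower (adjusted p = 0.00214). All 4 leukocyte markers were lower and all 3 pancreatic acinar markers higher, with 0 of either at an unadjusted p under 0.05. Both stromal markers were higher, at a summed 2423 to 2950 CPM in hypoxia and 1676 to 2028 CPM in normoxia. Both smooth muscle markers were higher too, at a summed 19553 to 21721 CPM in hypoxia and 13586 to 18084 CPM in normoxia. Limma called none of these, with 1 stromal marker (miR-199a) and 0 smooth muscle markers at an unadjusted p under 0.05. The part of these cell types in the result was not tested.

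At 0 h the direction was the other way. miR-138-5p was at 4.48, 4.60 and 3.65 CPM in hypoxia 0 h and at 4.52 and 6.97 CPM in normoxia 0 h, and the groups overlapped. The difference between the hypoxia changes at 12 h and at 0 h was 1.14 ± 0.37 on the log2 scale (limma with Benjamini-Hochberg adjustment, adjusted p = 0.281). Limma called 0 of 10 members in that test, against 0.997% of entries, with 5 (8.97% of entries), the same miR-138 entries, at an unadjusted p under 0.05. edgeR called 0 and DESeq2 called 3 miR-138 entries (adjusted p = 0.0102 for mmu-miR-138-5p), again without a DESeq2 share over all entries. Across time, miR-138-5p differed by 0.54 ± 0.25 between 12 h and 0 h of hypoxia (limma adjusted p = 0.772) and by −0.60 ± 0.27 between 12 h and 0 h of normoxia (limma adjusted p = 0.217).

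Rapid reoxygenation 12 h (6.38 and 5.77 CPM of miR-138-5p) also lay above normoxia 12 h in each library used. Its change of 0.69 ± 0.27 did not pass (limma with Benjamini-Hochberg adjustment, adjusted p = 0.809), and it shares the normoxia 12 h libraries with the hypoxia comparison. Of the 10 members, 4 (mmu-miR-138-5p, cgr-miR-138, fru-miR-138 and miR-153b-3p) had an unadjusted p under 0.05 there, against 4.49% of entries, 0 were called by limma, edgeR or DESeq2, and limma called 0% of entries. Gradual reoxygenation held 5.43, 5.21 and 3.61 CPM at 12 h and 8.54, 6.29 and 4.62 CPM at 3 h, and rapid reoxygenation 3 h held 4.22, 5.68 and 4.74 CPM. Group means ran from hypoxia 12 h (6.63) through gradual reoxygenation 3 h (6.48), rapid reoxygenation 12 h (6.08), normoxia 0 h (5.75), rapid reoxygenation 3 h (4.88), gradual reoxygenation 12 h (4.75) and hypoxia 0 h (4.24) down to normoxia 12 h (3.42 CPM). The step to the last was larger than the SD of either group. The other steps between neighbours were not. The authors' deposited mean of miR-138-5p for rapid reoxygenation 12 h, which includes a further library, is 4.76 CPM. The libraries used average 6.08 CPM. The place of rapid reoxygenation 12 h in this order, and above normoxia 12 h, therefore holds for the libraries used alone.

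miR-128-3p was lowest in both groups taken at 0 h. Normoxia 12 h held 637, 729 and 590.1 CPM and normoxia 0 h 233.7 and 384 CPM. Each 12 h library lay above each 0 h library. The means were 652 ± 70.8 CPM at 12 h (SD, n = 3) and 309 ± 106 CPM at 0 h (SD, n = 2). The log2 change of 1.11 ± 0.34 did not pass by limma (Benjamini-Hochberg adjusted p = 0.0739). Limma called 0 of the 10 members, where it called 4.82% of entries, with 3 members (both miR-128 entries and miR-138-5p) and 21.9% of entries at an unadjusted p under 0.05. edgeR (adjusted p = 0.0376) and DESeq2 (adjusted p = 0.0250) each called both miR-128 entries, as did limma without library 3 of normoxia 0 h (change of 1.47, adjusted p = 0.0113), which leaves the library that stood apart. Without that one, library 2, the change was 0.76 ± 0.41 (limma adjusted p = 0.476). The hepatocyte marker miR-122 moved with it, at 89169 to 95328 CPM in normoxia 12 h and at 37563 and 70974 CPM in normoxia 0 h. Limma called miR-122 higher at 12 h (change of 0.84, adjusted p = 0.0251). Markers of other cell types moved too. Both erythroid markers were called higher at 12 h by limma, with a sum of 7175 to 13971 CPM in normoxia 12 h and 823 and 2313 CPM in normoxia 0 h. Of the 7 bile duct and gut epithelium markers 3 were called lower, with a sum of 18379.7 to 21521 CPM in normoxia 12 h and 26557 and 125385 CPM in normoxia 0 h. Of both smooth muscle markers 1 was called lower, with a sum of 13586 to 18084 CPM in normoxia 12 h and 26816 and 65535 CPM in normoxia 0 h. The part of these cell types in the result was not tested.

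Gradual reoxygenation 3 h held 976.5, 643 and 642 CPM of miR-128-3p, above hypoxia 0 h at 437, 402 and 444 CPM in each library. The change of 0.79 ± 0.31 did not pass (limma with Benjamini-Hochberg adjustment, adjusted p = 0.280). Rapid reoxygenation 3 h held 496, 693 and 675 CPM, rapid reoxygenation 12 h 926 and 386 CPM, gradual reoxygenation 12 h 880 (library 1), 531 and 457 CPM, and hypoxia 12 h 534, 591 and 714 CPM. These 4 groups overlapped one another. The 6 groups other than those at 0 h had means of 613 to 754 CPM, closer to their neighbours than the SD of the wider of each pair. Hypoxia 0 h (428 ± 22.6 CPM) stood below them and normoxia 0 h (309 ± 106 CPM) below that, each by more than the SD of either neighbour.

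miR-124-5p stayed at or below 1.87 CPM. It was at 0.236, 1.87 and 1.60 CPM in gradual reoxygenation 3 h, against 0.126, 0.0936 and 0.450 CPM in rapid reoxygenation 3 h and 0.389, 0.0807 and 0.113 CPM in hypoxia 0 h. Libraries 2 and 3 of gradual reoxygenation 3 h, with 58 and 54 reads, were the highest of all 22, and library 1, with 6 reads, lay within the range of the others. The log2(CPM + 1) change was 0.82 ± 0.33 against hypoxia 0 h (limma with Benjamini-Hochberg adjustment, adjusted p = 0.298) and 0.79 ± 0.33 against rapid reoxygenation 3 h (adjusted p = 0.408 by limma), and neither passed. The same 2 libraries were the lowest in miR-153b-3p. In the other groups miR-124-5p was at 0.765 and 0.196 CPM in rapid reoxygenation 12 h, 0.343, 0.112 and 1.06 CPM in gradual reoxygenation 12 h, and 0.0318, 0.0766 and 0.491 CPM in hypoxia 12 h. Normoxia held 0.404 and 0.623 CPM at 0 h and 1.35, 0.618 and 0.0626 CPM at 12 h. No neighbours among the 8 group means, which ran from 1.24 CPM in gradual reoxygenation 3 h to 0.194 CPM in hypoxia 0 h, differed by more than the SD of the wider group. Between 1 and 58 reads lay behind each value.

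Over the 8 groups together, limma's F test gave an unadjusted p of 0.00481 for miR-153b-3p (adjusted p = 0.145) and of 0.0343 for miR-128-3p (adjusted p = 0.303). It called 0 of the 10 members, where 1.5% of entries were called, with 3 members (miR-153b-3p and both miR-128 entries) and 14.8% of entries at an unadjusted p under 0.05. edgeR called 0 and DESeq2 called 3, namely both arms of miR-153b and miR-138-5p, without a DESeq2 share over all entries. In hypoxia 0 h against normoxia 0 h limma called 0 members, against 0.498% of entries, with 0 members and 8.31% of entries at an unadjusted p under 0.05. In the comparisons not yet counted limma called 0 members and 0% of entries. Members at an unadjusted p under 0.05 numbered 5 for hypoxia 12 h against hypoxia 0 h (5.48% of entries), the tested miR-138 entries, and 2 for rapid reoxygenation 12 h against hypoxia 12 h (4.98%), gga-miR-138-5p and pma-miR-138b. They numbered 0 for rapid reoxygenation 3 h against hypoxia 0 h (2.66%), gradual against rapid reoxygenation at 12 h (6.81%), and rapid reoxygenation 12 h against 3 h (2.16%). In those 6 comparisons edgeR and DESeq2 called 0 members.

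Library 1 of gradual reoxygenation 12 h held a set of neural miRNAs at levels seen in no other library. mmu-miR-124-3p was at 5.55 CPM (97 reads) there and at 0 to 0.595 CPM in the other 21. The arm names of miR-124 are at odds, so they do not settle whether these reads are the active strand. gga-miR-153-3p was at 2.06 CPM there and at 0 to 0.811 CPM elsewhere, and mmu-miR-153-5p was at 0.515 CPM (9 reads) there and at 0 in the other 21 libraries. Of the 10 tested members 1 (miR-153b-5p) was highest in this library, against 6.81% of the 602 tested entries. That entry was tested in part through its level in this library. Of the 22 members above 0 that were not tested 10 were, against 11.4% of the 799 such entries. These 11 are 8 entries of miR-124 and 3 of miR-153. Several share reads, and gga-miR-124a-5p rests on 1 read, which counts for most CPM in this library, the one with the fewest reads. This library was singled out after its values were seen.

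Of 9 other neural miRNAs counted beside the 4 families, several stood out in the same library. miR-9, of neural progenitors and neurons, was at 325 CPM there and at 4.24 to 29.0 CPM in the other 21 by its most abundant entry, oha-miR-9-3p. That entry equalled aca-miR-9-5p in 21 of 22 libraries, so the names do not settle its arm. Of the 17 miR-9 entries, near copies among them, 13 were highest there. Over all 1401 entries above 0, the share highest in this library was 9.42%. miR-219 as a family promotes the maturation of the myelin-forming oligodendrocytes. Its entry named for the 3p arm, miR-219-3p, was at 7.61 CPM there and at 0 to 0.404 CPM elsewhere. miR-129-5p was at 18.9 CPM there and at 1.00 to 17.2 CPM elsewhere, and miR-212-5p at 1.72 CPM there and at 0 to 0.323 CPM elsewhere. miR-132, which neuronal activity induces in mammals, had 6 of its 8 entries highest there, with hsa-miR-132-5p at 9.72 CPM there and at 0 to 0.767 CPM elsewhere, and mmu-miR-132-3p at 3.49 CPM there and at 0.0354 to 0.727 CPM elsewhere. The miR-132 entry with the highest mean level, aca-miR-132-5p, was at 0.229 CPM there and at 0.0383 to 3.21 CPM elsewhere. Other neural miRNAs lay within the range of the other libraries by their most abundant entry, namely miR-137b-3p (0.0572 CPM there and 0 to 2.10 CPM elsewhere), gga-miR-7 (109 CPM), miR-218b (1138 CPM) and miR-338-3p (16.8 CPM). Lower entries of miR-137 (3 of 6) and miR-7 (3 of 13) were highest there. Those of miR-137 were each at 0.172 CPM, the floor of 3 reads in this library, and are no result. Of miR-7, dre-miR-7b was at 5.61 CPM there and at 0 to 0.451 CPM elsewhere. gmo-miR-7b-5p (0.343 CPM there, at most 0.340 CPM elsewhere) and mle-miR-7-5p (0.229 CPM, at most 0.202 CPM elsewhere) were barely higher.

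The abundant members did not share this pattern. In library 1 of gradual reoxygenation 12 h miR-153b-3p was at 156 CPM, the fifth highest of 22, miR-128-3p at 880 CPM, the third highest, miR-138-5p at 5.43 CPM, the tenth highest, and miR-124-5p at 0.343 CPM, within the others' range. Without this library the change of miR-153b-3p between 12 h and 3 h of gradual reoxygenation was 4.57 ± 1.21, as large as with it, at a limma adjusted p of 0.113.

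**Figure D3:**
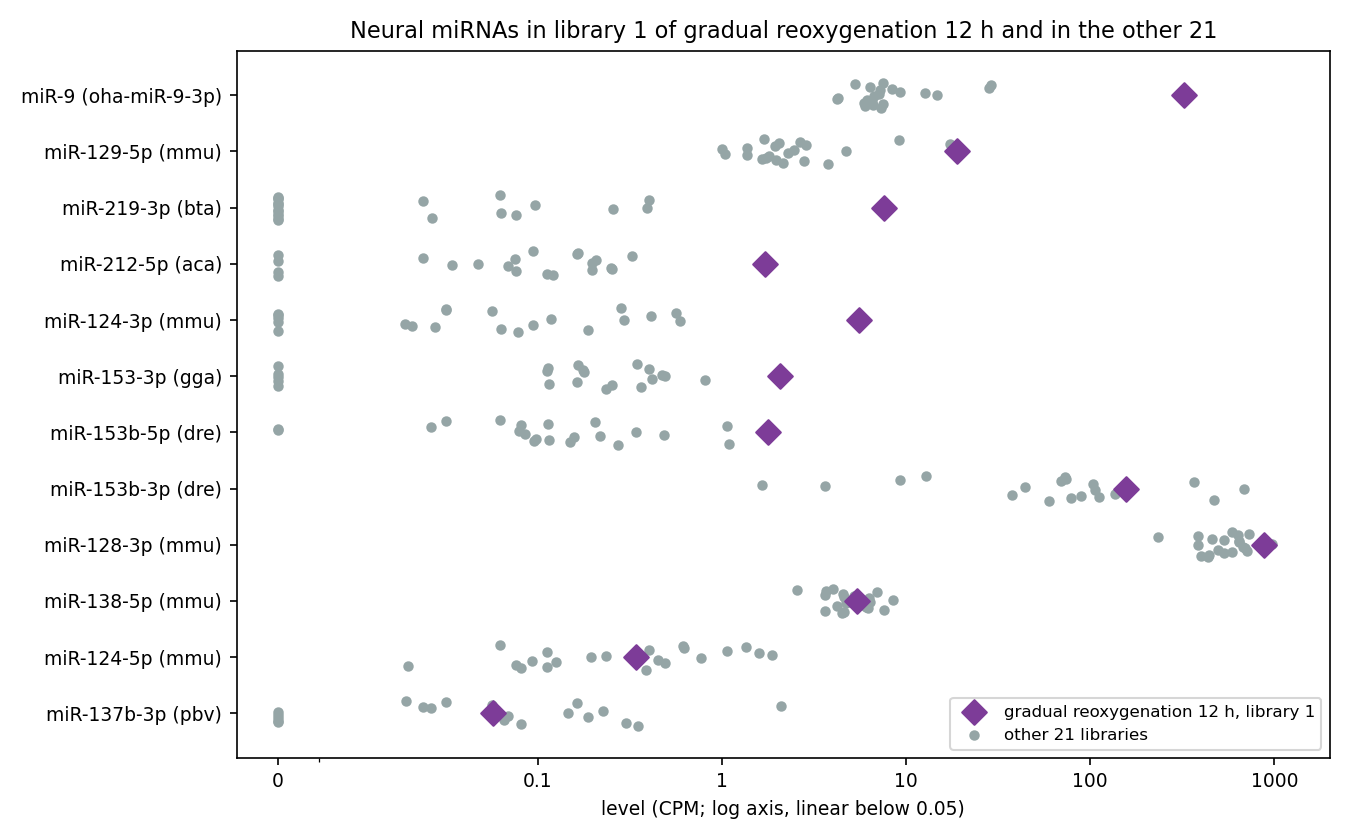
Level in CPM (axis linear below 0.05 and logarithmic above) of members and other neural miRNAs in library 1 of gradual reoxygenation 12 h (diamonds) and in the other 21 libraries (dots). miR-9, miR-219-3p, miR-212-5p and miR-124-3p lie above all other libraries there, while miR-153b-3p, miR-128-3p, miR-138-5p and miR-124-5p lie within their range.

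As a list, the 9 other neural miRNAs had 6 tested members and limma called 0 of them in each of the 17 tests, with 1 (miR-132-5p, rapid reoxygenation 12 h against normoxia 12 h) at an unadjusted p under 0.05. edgeR called 1, miR-9 (oha-miR-9-3p) over the 8 groups, and DESeq2 called 1, miR-129-5p, over the 8 groups and in gradual reoxygenation 12 h against 3 h. Of 3 miRNAs of sensory cells, miR-183, miR-182 and miR-96, all were tested and limma called 0 in each test. Their smallest adjusted p by limma was 0.0812, in normoxia 12 h against 0 h, where all 3 were lower at 12 h and 2 (miR-182 and miR-183) had an unadjusted p under 0.05. In hypoxia 0 h against normoxia 0 h 2 had one too, and over the 8 groups 1. edgeR and DESeq2 called miR-182 and miR-183 in normoxia 12 h against 0 h and over the 8 groups, and DESeq2 called miR-183 also in hypoxia 0 h against normoxia 0 h. Each of these tests holds library 2 of normoxia 0 h, which stood apart, and results without it are not given here for these miRNAs. Their summed level was 4.76 CPM in one normoxia 0 h library and 31.7 CPM in the other.

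The entries most like each member were found by Pearson's r of log2(CPM + 1) over the 22 libraries, among 160 or 161 family names with a mean of at least 10 CPM. All libraries share a fixed sum, and a shared group difference raises r. miR-153b-3p was most like miR-21 (dre-miR-21), a widely expressed miRNA that is raised in many inflamed tissues. Its r was 0.76, its Spearman rho 0.79 and its r over deviations from group means 0.78, and r was 0.72 without the 2 libraries farthest from the median. It was followed by miR-146-3p (r = 0.64), miR-146a (0.60), an inhibitor of inflammatory signalling in mammals, miR-10c (0.52) and miR-27e (0.51). Without the 2 libraries farthest from the median of each, r was 0.54 for miR-146-3p, 0.47 for miR-146a, 0.73 for miR-10c and 0.25 for miR-27e. The rho of miR-27e was 0.28, and the r of miR-10c over deviations from group means was 0.22. The 3 libraries with the most miR-153b-3p were library 2 of rapid reoxygenation 12 h, library 2 of hypoxia 0 h and library 3 of gradual reoxygenation 12 h. They were also the 3 highest in each of these 5 miRNAs, which were chosen for their r with miR-153b-3p over the same libraries, so this describes the choice and adds no support to it. miR-146a was at 44169 CPM in the first, 68553 CPM in the second and 51688 CPM in the third, and at 9892 to 30628 CPM in the others. miR-27e was at 367, 635 and 364 CPM in the same libraries, and at 53.9 to 123 CPM in the others. Among the 22 libraries, with 1 as the highest, and in the same order of libraries, the 4 leukocyte markers ranked 1, 10 and 15 (miR-142-5p), 8, 9 and 12 (miR-223-3p), 6, 3 and 19 (miR-155) and 5, 4 and 10 (miR-150).

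miR-128-3p was most like the hepatocyte miRNA miR-122 (cgr-miR-122), with an r of 0.84, a rho of 0.83, an r over deviations from group means of 0.73 and an r of 0.80 without the 2 farthest libraries. miR-122b (r = 0.82), miR-210-5p (0.76), miR-199a (0.65) and miR-181a (0.64) came after it. By its name miR-122b is a variant of miR-122, and it is not counted as a separate partner. Both were lowest in library 2 of normoxia 0 h. Without the 2 farthest libraries r was 0.73 for miR-122b, 0.55 for miR-210-5p, 0.28 for miR-199a and 0.26 for miR-181a. miR-138-5p had weaker partners, with miR-34a (r = 0.58), miR-34b (0.58, equal to miR-34a in 21 of 22 libraries and so no separate partner), miR-456 (0.54), miR-221 (0.53) and miR-30d (0.49). For miR-34a r over deviations from group means was 0.22. miR-124-5p had none above 0.42, the r with miR-451. Its values rest on few reads, and a weak r there is no result.

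**Figure D4:**
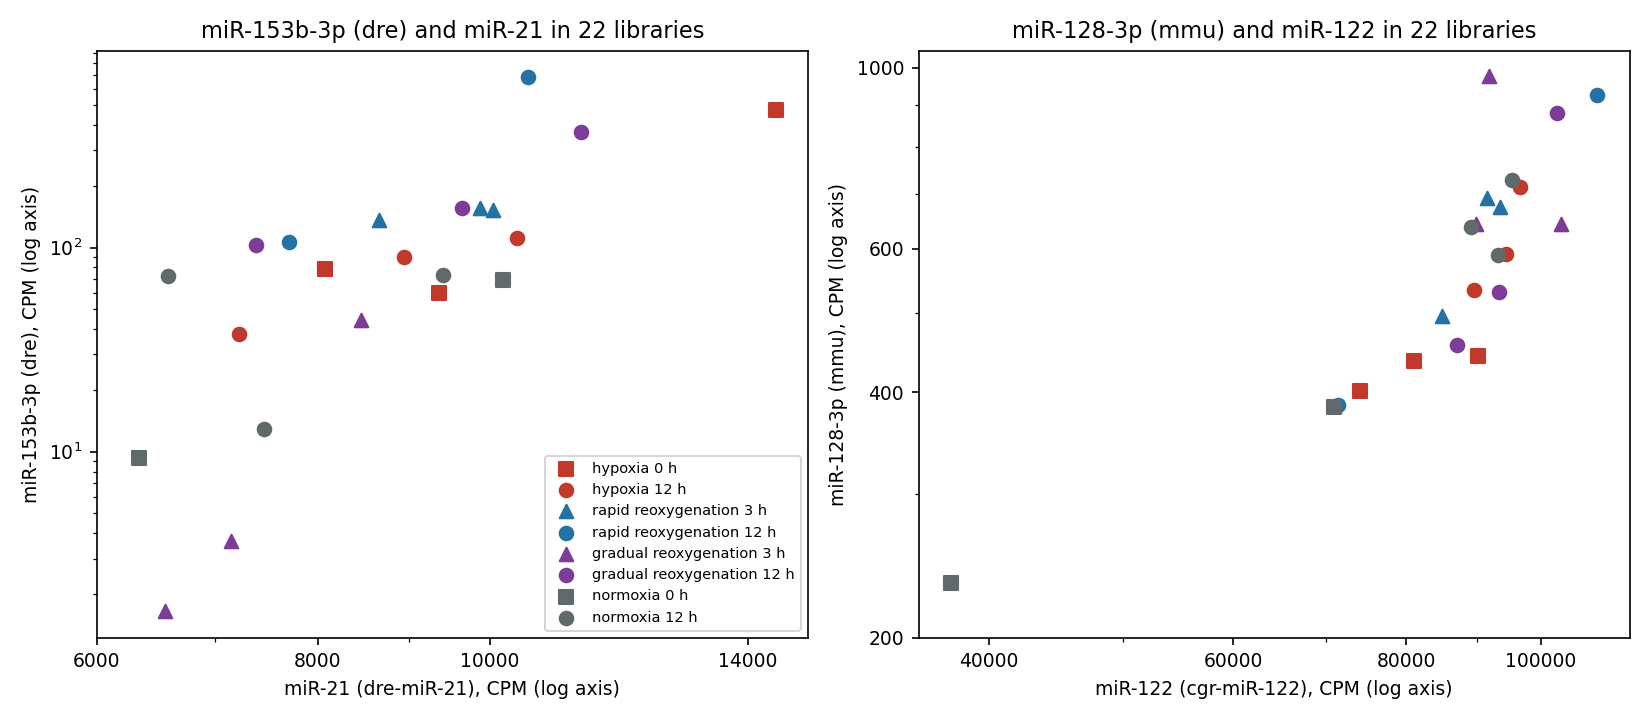
Levels in CPM (both axes logarithmic) of miR-153b-3p against miR-21 (left) and of miR-128-3p against miR-122 (right) in the 22 libraries, with colour for the oxygen treatment and shape for the hour. Pearson's r of log2(CPM + 1) is 0.76 on the left and 0.84 on the right, and library 2 of normoxia 0 h lies far to the lower left on the right.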

How the data were processed

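Small RNA of whole liver was sequenced as single-end reads of 50 bases, per the labels' protocols. The submitters' processing notes name Bowtie without a version. No source used here gives a reference, annotation or read counter. The values were made by the authors as CPM, although the deposited table calls them TPM: each library has the same sum, and all 27824 values above 0 (100%) are whole multiples of 1 read within 0.01. Repeated rows (696) and rows at 0 throughout (11) were removed.

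The 602 entries (240 family names) at 1 CPM or more in 2 or more libraries entered a fit of log2(CPM + 1) over all 8 groups, by limma 3.58.1 with its trend option in R 4.3.3, and p-values were adjusted by Benjamini-Hochberg within each of 17 tests at a threshold of 0.05. A pseudocount of 1 understates changes of low entries. edgeR 4.0.16 (quasi-likelihood) and DESeq2 1.42.0 ran on recovered reads as alternatives. Shares of all entries called are given for limma alone, so member counts by edgeR and DESeq2 have no share to be read against. Other alternatives were TMM factors, another pseudocount, other filters, fits of only the groups compared, a replicate block and leaving out each library. The fits were tested on simulated data. Per family and arm the most abundant entry is given by library, and members at an unadjusted p under 0.05 are named. Exceptions are the further entries of the library that stood apart in neural miRNAs, named after their values were seen. Members, lists, tests and the naming rule were chosen with earlier results of these data known.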

Additional observations from a re-analysis of the deposited data

How the results depend on the processing

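The number of members past the threshold stayed the same in all but 24 of 325 alternatives, and no change named in the text turned its sign. For gradual reoxygenation 12 h against 3 h limma called 1 member. With a pseudocount of 10, with no filter, with only the groups compared in the fit and with edgeR it was 0, with DESeq2 2, and 0 to 1 when single libraries were left out. It was 0 when library 1 of gradual reoxygenation 12 h was left out of every comparison, an alternative chosen after seeing the data. There, with a replicate block, the count was 1. Over 18 alternatives the change of miR-153b-3p was 3.23 to 5.69, its adjusted p 0.00525 to 0.172, and it passed in 8.

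The other counts were 0 by limma. DESeq2 gave 3 for hypoxia 12 h against normoxia 12 h, 2 for normoxia 12 h against 0 h (edgeR 2), 1 for gradual reoxygenation 3 h against hypoxia 0 h and against rapid reoxygenation 3 h, 3 for the difference between hypoxia changes, 1 for that between reoxygenation changes and 3 over the 8 groups. Leaving out single libraries gave 0 to 2 for normoxia 12 h against 0 h, and 0 to 1 for gradual reoxygenation 3 h against rapid reoxygenation 3 h, gradual reoxygenation 12 h against normoxia 12 h and the 8 groups. Without library 2 of normoxia 0 h, chosen after seeing the data, the count was 1 for gradual reoxygenation 3 h against hypoxia 0 h. The causes were not tested. Where a group keeps 1 library, it is assumed to vary like the others.

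Libraries of the same number did not stand out as alike. Of same-number pairs 15 of 70 correlated above 0.1, against 46 of 141 other-number pairs. Of the libraries, 7 of 22 were closest to their own number. These values cannot exclude that equal numbers share a fish or batch. The replicate block moved no count of members. TMM factors moved the median of all entries by 0.15, 0.11 and 0.12 for gradual reoxygenation 12 h against 3 h, hypoxia 12 h and normoxia 12 h, from −0.12 in the first. miR-124-5p rests on 1 to 58 reads a library.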
